A study of Mus musculus with 12 samples.

Results

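The transcripts of 10 genes that encode NF-κB subunits and their inhibitors were followed in mouse bone marrow-derived macrophages. The genes were taken by symbol from a table of 23863 genes: *Nfkb1*, *Nfkb2*, *Rel*, *Rela* and *Relb* for the 5 subunits, *Nfkbia*, *Nfkbib* and *Nfkbie* for 3 cytoplasmic IκB proteins, and *Nfkbiz* and *Bcl3* for 2 nuclear IκB-like proteins. All 10 were in the table and all 10 had a mean of at least 1 FPKM (fragments scaled to transcript length and to the mapped fragments of the library), so all were among the 10137 genes tested. The macrophages came from the bone marrow of C57BL/6 mice aged 6 to 8 weeks, either wildtype (Wt) or *Mirc11-/-* (mirn23a-/-, titled Ako). *Mirc11* is the gene for the miR-23a, miR-27a and miR-24-2 cluster, and no Cre or transgene is named. All cells were grown for 7 days in medium with 15% L929-conditioned medium as the source of M-CSF and then stimulated for 24 h. For M1 polarization, 100 ng/ml LPS was given with interferon gamma, at 50 ng/ml by the treatment protocol and 10 ng/ml by the treatment field. For M2 polarization, 20 ng/ml IL-4 and 20 ng/ml IL-13 were given. The 4 groups have 3 libraries each, and none of them is of unstimulated macrophages.

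In resting cells NF-κB dimers are held in the cytoplasm by IκB proteins. Signals from Toll-like receptors, which include the receptor for LPS, activate the IκB kinase (IKK). IKK marks IκBα for degradation, the freed dimers enter the nucleus, and among the genes they switch on are those for IκBα and for several of the subunits themselves, which closes a negative feedback loop. *Nfkb1* and *Nfkb2* encode long precursors that carry an inhibitory part of their own and are processed to the shorter DNA-binding subunits. In macrophages the pathway drives inflammatory cytokine genes after LPS.

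The deleted microRNAs and the places where they could pair with these transcripts are shown first, since they are the only difference between the genotypes that the labels name. The mature sequences are from RefSeq (GRCm38.p6), with the seed, bases 2 to 8, in capitals. Mature miR-24-3p is also made from another mouse gene, and the related miR-23b and miR-27b carry the seeds of miR-23a and miR-27a, so the deletion does not remove these seeds from the genome.
miR-23a-3p (chr8:84208563-84208583, forward strand): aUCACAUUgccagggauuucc
miR-27a-3p (chr8:84208727-84208747, forward strand): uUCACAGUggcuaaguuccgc
miR-24-3p (chr8:84208875-84208896, forward strand): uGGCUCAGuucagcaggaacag

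The 3 seeds differ from each other, so they share no site. In the longest annotated 3′ UTR of each gene (GENCODE M21, GRCm38), 4 of the 10 genes held 6 matches to the reverse complement of a seed (a 7mer-m8 site, or an 8mer where an A follows). Such a match to any of the seeds was present in 36.79% of all 20832 genes with a 3′ UTR. *Nfkb2* held 2 miR-24-3p sites, *Nfkbib* 1 for miR-24-3p and 1 for miR-27a-3p, and *Rel* and *Bcl3* 1 each for miR-27a-3p. The other 6 genes, *Nfkbia* among them, held none in these 3′ UTRs, and no match to the miR-23a-3p seed was found in any of the 10. The sites are printed with their neighbouring bases as DNA, the match in capitals, for setting beside the genotype comparison.
Nfkb2, miR-24-3p, 7mer-m8 (chr19:46311831-46311860, forward strand): gtgtccaccccCTGAGCCtccaggagggct
Nfkb2, miR-24-3p, 8mer (chr19:46312272-46312301, forward strand): ctggcttctgtCTGAGCCAggccccaggat
Rel, miR-27a-3p, 7mer-m8 (chr11:23736872-23736901, reverse strand): tatctttgtatACTGTGAtttttgttgatg
Nfkbib, miR-24-3p, 7mer-m8 (chr7:28758764-28758793, reverse strand): ggtcaacagtcCTGAGCCtcagggagtgtg
Nfkbib, miR-27a-3p, 8mer (chr7:28758597-28758626, reverse strand): cctcgatggccACTGTGAAtagcagctctg
Bcl3, miR-27a-3p, 7mer-m8 (chr7:19808782-19808811, reverse strand): ctcttctggaaACTGTGAggaccttgttct

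Matches to the kB decamer consensus, the DNA element that NF-κB dimers bind, were searched on both strands of the RefSeq promoters (250 bases before to 50 after the transcription start, GRCm38.p6), overlapping matches counted separately. RefSeq promoters were found for 7 of the 10 genes and 9 start sites, and those of *Nfkb1*, *Relb* and *Nfkbiz* were not used here. The decamer was present for 5 of these 7 genes, *Nfkb2*, *Rel*, *Nfkbia*, *Nfkbie* and *Bcl3*, and in 7 of their 9 promoters, against 4.51% of 32851 promoters of the same length. *Nfkb2* and *Rel* held 2 or more matches in a promoter, as did 0.55% of all promoters. These are not all separate sites: the later *Nfkb2* promoters overlap and share a match, and the *Rel* matches are overlapping bases read on both strands. A looser form, GGG and CC with any 5 bases between them, was present for 6 of the 7 genes, against 50.79% of all promoters. *Rela* and *Nfkbib* held none in this window. Promoters are printed for *Nfkb2* (its first start site) and *Nfkbia*, which differed between the genotypes, and for *Rel*, which did not follow the other genes in M1. That of *Nfkbib*, which like *Rela* differed between M1 and M2 without a match, is also printed. Decamer matches are in capitals and begin 39, 38 and 11 bases before the start in *Nfkb2*, 29 before it in *Nfkbia*, and 92 and 91 before it in *Rel*.
Nfkb2 (chr19:46304487-46304786, forward strand): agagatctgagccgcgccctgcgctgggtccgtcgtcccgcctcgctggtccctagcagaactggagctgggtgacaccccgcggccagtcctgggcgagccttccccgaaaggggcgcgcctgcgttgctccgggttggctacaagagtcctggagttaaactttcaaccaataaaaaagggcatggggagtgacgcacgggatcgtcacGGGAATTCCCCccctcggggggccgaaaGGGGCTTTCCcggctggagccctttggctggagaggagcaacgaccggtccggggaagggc
Nfkbia (chr12:55492598-55492897, reverse strand): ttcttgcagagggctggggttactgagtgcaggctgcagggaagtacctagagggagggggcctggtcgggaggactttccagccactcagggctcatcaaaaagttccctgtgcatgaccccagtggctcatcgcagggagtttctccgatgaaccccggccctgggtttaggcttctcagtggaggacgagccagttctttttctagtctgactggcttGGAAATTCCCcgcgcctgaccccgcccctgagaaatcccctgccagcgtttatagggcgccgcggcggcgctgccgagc
Rel (chr11:23770920-23771219, reverse strand): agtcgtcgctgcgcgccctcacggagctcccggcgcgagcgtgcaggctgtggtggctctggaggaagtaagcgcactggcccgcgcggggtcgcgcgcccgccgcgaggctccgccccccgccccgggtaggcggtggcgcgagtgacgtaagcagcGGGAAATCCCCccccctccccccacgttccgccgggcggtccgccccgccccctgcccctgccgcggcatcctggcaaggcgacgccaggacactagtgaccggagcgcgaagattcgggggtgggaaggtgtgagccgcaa
Nfkbib (chr7:28766595-28766894, reverse strand): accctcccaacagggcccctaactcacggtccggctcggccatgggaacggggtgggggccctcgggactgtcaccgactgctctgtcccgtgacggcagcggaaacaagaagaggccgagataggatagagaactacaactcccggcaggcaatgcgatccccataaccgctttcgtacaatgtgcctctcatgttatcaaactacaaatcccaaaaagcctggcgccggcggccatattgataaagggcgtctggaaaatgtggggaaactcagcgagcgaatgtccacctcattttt

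The libraries were similar in depth and in the number of genes detected. Relative depth, read from the smallest steps of low FPKM values, was 0.795 to 1.26 times that of library Wt2260M1, between 14366 and 14708 genes were above 0, and libraries of a group correlated at 0.988 to 0.997. The 10 most abundant genes took 20.0% to 21.7% of the summed FPKM in the 6 M1 libraries and 15.8% to 16.5% in the 6 M2 libraries. Titles and treatment fields name different polarizations for 6 of the 12 libraries, and groups here follow the titles. By title, *Nos2*, an M1 marker, was at 938 to 1630.4 FPKM in the 6 M1 libraries and 0.802 to 2.26 in the 6 M2 libraries. Within M1 it was at 938 to 1083 in *Mirc11-/-* and 1379 to 1630.4 in wildtype. *Mrc1*, an M2 marker, was at 0.123 to 0.403 in M1 and 229.9 to 301 in M2, so each library carried the markers of its title. Grouped by the treatment field instead, 0 of the 10 genes passed the test in any comparison. The rows of the deleted microRNAs held no signal for *Mir23a* and *Mir24-2* (0 throughout), and *Mir27a* was above 0 in 1 Wt M1 library, so the table does not check the genotypes. All 8 macrophage markers in the table were at or above 1 FPKM in every group, led by *Lyz2*.

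The levels of nearly all of these genes differed between the polarizations. In wildtype macrophages 9 of the 10 were higher in M1 than in M2 and 1, *Rel*, was lower (limma, Benjamini-Hochberg adjusted p under 0.05). In *Mirc11-/-* macrophages the 9 genes other than *Rel* were higher and *Rel* did not pass the test. Of all genes tested, 26.6% were called higher and 52.0% lower in wildtype, and 26.0% higher and 54.0% lower in *Mirc11-/-*. The libraries of the 2 polarizations did not overlap for all 10 genes in wildtype and for 9 in *Mirc11-/-*, where 27.3% (higher) and 53.4% (lower) of all genes tested did not overlap in wildtype and 26.6% and 54.4% in *Mirc11-/-*. The median log2 change of the 10 genes was 0.97 in wildtype and 1.29 in *Mirc11-/-*, against -0.19 and -0.21 over all genes tested. A median-of-ratios scaling moved the latter to 0.00 in both genotypes and the share of higher genes among the calls from 33.8% to 50.4% in wildtype and from 32.5% to 50.3% in *Mirc11-/-*, and the same number of these genes, 9, was called higher in each.

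**Figure D1:**
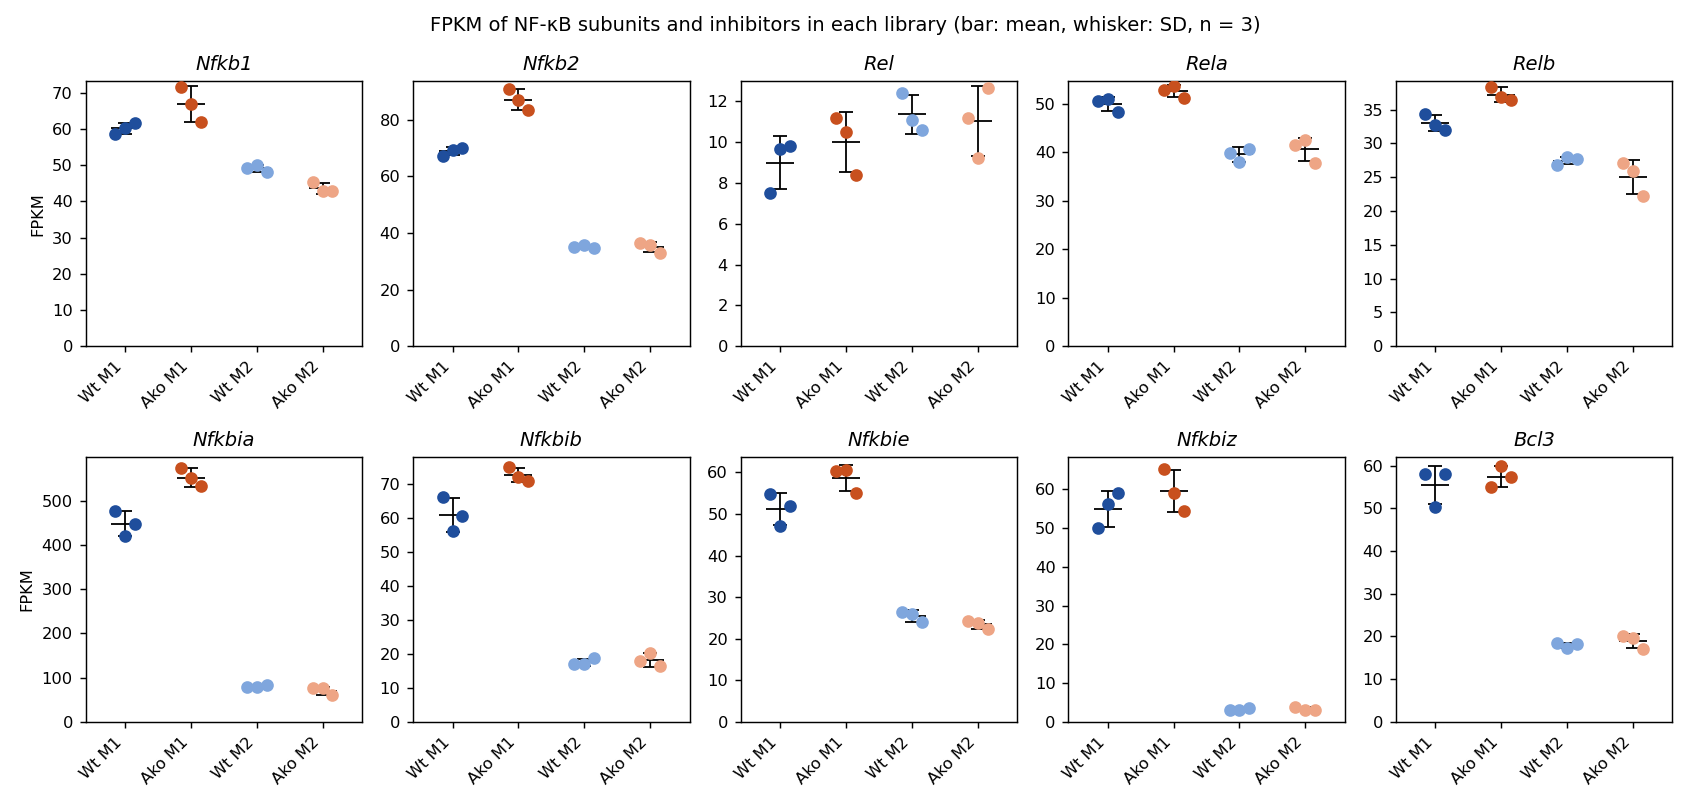
FPKM of each gene (vertical axes, from 0) in the 12 libraries, by genotype and polarization. Points are libraries, bars group means and whiskers SD (n = 3). *Nfkbia* is far above the others in M1, *Nfkbiz* is at most 3.96 FPKM in M2 and at least 49.9 in M1, and for *Rel* the genotypes overlap in both polarizations.

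The nuclear IκB-like genes included the one with the steepest difference. *Nfkbiz* encodes IκBζ, which binds NF-κB in the nucleus and is needed for a set of secondary response genes. Its FPKM was 49.9, 56.1 and 59.0 in wildtype M1 and 3.08, 3.10 and 3.68 in wildtype M2. In *Mirc11-/-* it was 65.2, 59.0 and 54.4 in M1 and 3.96, 2.99 and 3.0 in M2. Every M1 library was thus far above every M2 library in both genotypes, a 16.7-fold ratio of means in wildtype and 17.9-fold in *Mirc11-/-*. On the log2(FPKM + 1) scale, which understates the change of low genes, the difference was 3.71 ± 0.10 (SE) in wildtype, adjusted p = 6.52e-12 by limma.

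*Bcl3* encodes a partner of the *Nfkb1* and *Nfkb2* products that can activate or repress on DNA. It was at 57.9, 50.3 and 58.1 FPKM in wildtype M1 and 18.4, 17.3 and 18.2 in wildtype M2. The *Mirc11-/-* libraries were at 54.9, 59.8 and 57.4 in M1 and 20.2, 19.5 and 17.0 in M2. The M1 and M2 libraries did not overlap, while the genotypes overlapped in each polarization. The ratio of M1 to M2 was 3.09 in wildtype (log2 difference 1.57 ± 0.07 SE, limma adjusted p = 7.94e-10) and 3.03 in *Mirc11-/-*.

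All 3 cytoplasmic IκB genes were higher in M1. *Nfkbia*, which encodes IκBα, the fast feedback inhibitor, had the highest FPKM of the 10 genes in every group. It was at 476, 419 and 448 in wildtype M1 and at 78.8, 78.6 and 83.6 in wildtype M2. The ratio was 5.57 (log2 difference 2.46 ± 0.08 SE, limma adjusted p = 5.57e-11) in wildtype and 7.80 in *Mirc11-/-*, where the difference was 2.95 ± 0.08 (SE).

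*Nfkbib* encodes IκBβ, which is degraded more slowly. Its FPKM was 66.2, 56.1 and 60.4 in wildtype M1 and 17.0, 16.9 and 18.8 in wildtype M2, a ratio of 3.46. *Nfkbie* encodes IκBε, a later feedback inhibitor. It was at 54.7, 47.1 and 51.8 in wildtype M1 and 26.5, 25.9 and 23.9 in wildtype M2, a ratio of 2.01. In *Mirc11-/-* the ratios were 3.99 for *Nfkbib* and 2.5 for *Nfkbie*, and no M1 library of either gene overlapped an M2 library. All 4 of these differences passed the limma test, with adjusted p at most 2.7e-08.

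Among the subunits the differences were smaller, with *Nfkb2* first. *Nfkb2* encodes the precursor of the alternative NF-κB pathway, and its FPKM was 67.2, 69.3 and 70.1 in wildtype M1 and 35.0, 35.6 and 34.8 in wildtype M2, a ratio of 1.96. In *Mirc11-/-* it was 90.8, 87.0 and 83.3 in M1 and 36.4, 35.7 and 32.9 in M2, a ratio of 2.49. The log2 difference was 0.95 ± 0.05 (SE) in wildtype and 1.29 ± 0.05 (SE) in *Mirc11-/-*. *Nfkb2* is the only subunit gene whose M1 level was close to 2 or more times that in M2.

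*Rela* encodes the main activating subunit of the canonical pathway, with the product of *Nfkb1* as its usual partner. *Relb* encodes that of the alternative pathway, where it pairs with the product of *Nfkb2*. Wildtype *Rela* was at 50.5, 50.9 and 48.2 FPKM in M1 and 39.9, 37.9 and 40.7 in M2, a ratio of 1.26. Wildtype *Relb* was at 34.3, 32.7 and 32.0 in M1 and 26.8, 27.9 and 27.7 in M2, a ratio of 1.20. Wildtype *Nfkb1* was at 58.6, 60.2 and 61.8 in M1 and 49.1, 50.2 and 48.0 in M2, a ratio of 1.23. Small as they are, these differences exceeded the spread of the libraries, with no overlap of M1 and M2 and limma adjusted p of 8.31e-05, 0.0028 and 0.000392. The ratios in *Mirc11-/-* were 1.30, 1.49 and 1.53, and all 3 passed the test there too.

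*Rel*, which encodes the subunit c-Rel, went the other way and was the least steady of the 10. Its FPKM was 7.52, 9.66 and 9.82 in wildtype M1 and 12.4, 11.1 and 10.6 in wildtype M2, so that M1 lay below M2 without overlap. The log2 difference was -0.31 ± 0.13 (SE), limma adjusted p = 0.0391. In *Mirc11-/-* it was at 11.2, 10.5 and 8.38 in M1 and 11.2, 9.23 and 12.6 in M2, which overlapped, with a log2 difference of -0.12 ± 0.13 (SE), adjusted p = 0.386. The wildtype call was lost with a median-of-ratios scaling (-0.12, adjusted p = 0.433), which also turned the *Mirc11-/-* difference positive at 0.10, with quantile normalization (-0.13 in wildtype, 0.09 in *Mirc11-/-*) and without the filter on low genes (adjusted p = 0.0771). It was also lost without Wt2260M1 (-0.20, adjusted p = 0.174), Wt2260M2 (-0.25, 0.132), Wt2261M2 (-0.33, 0.0623) or Ako2271M2 (-0.31, 0.0504).

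**Figure D2:**
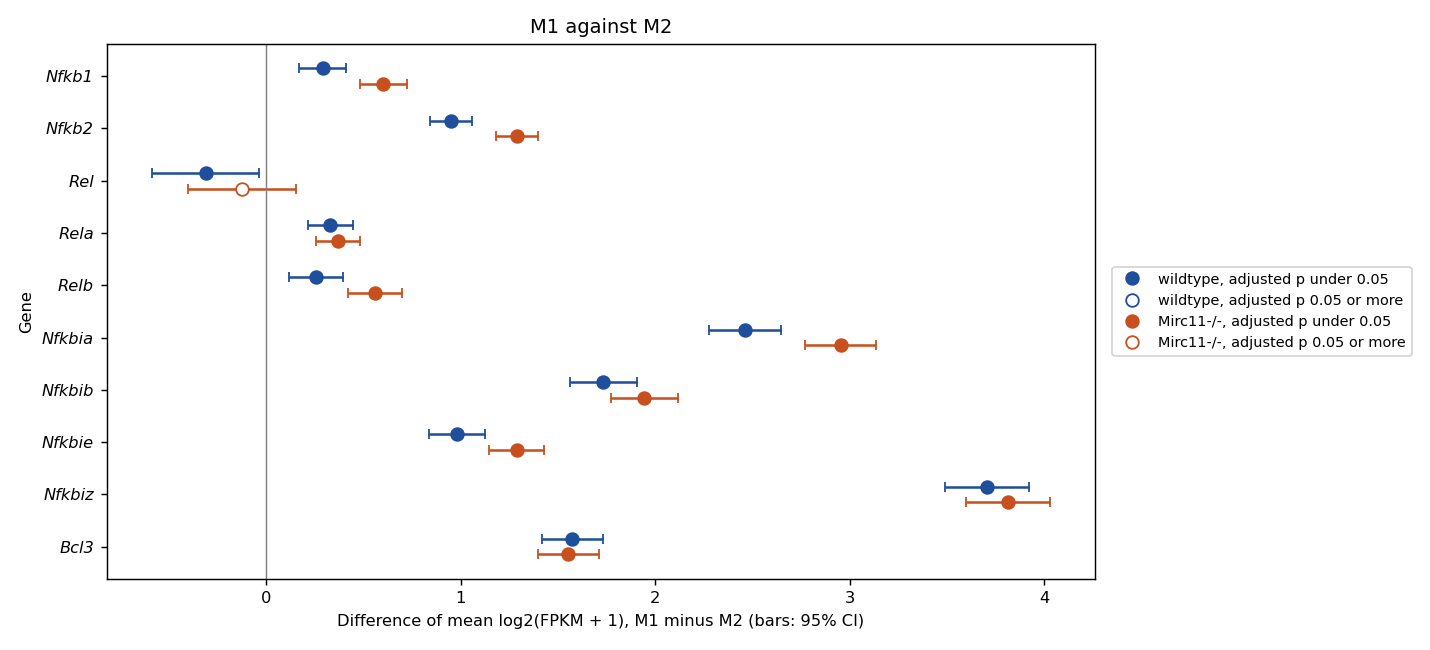
Difference of mean log2(FPKM + 1), M1 minus M2 (horizontal axis), for each gene (vertical axis) in wildtype and *Mirc11-/-*. Bars are 95% confidence intervals and filled points have an adjusted p under 0.05. *Nfkbiz* has the largest difference, 3.71 and 3.81, and *Rel* alone lies below 0, at -0.31 and -0.12.

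Because FPKM is scaled to transcript length, levels of different genes can be ordered. In wildtype M1 *Nfkbia* was first at 447 ± 28.2 FPKM (SD, n = 3) and *Nfkb2* second at 68.9 ± 1.5. *Nfkbib*, *Nfkb1*, *Bcl3*, *Nfkbiz*, *Nfkbie* and *Rela* followed, from 60.9 down to 49.9 on average, and each overlapped its neighbour in that order except that *Nfkb1* (58.6 to 61.8) lay just above *Bcl3* (50.3 to 58.1). *Relb* (33.0 ± 1.17) and *Rel* (9.0 ± 1.29) lay below all of them without overlap. In wildtype M2, *Nfkb1*, *Rela*, *Relb* and *Rel* stood higher in the order than in M1, and *Nfkb2* stood lower. *Nfkbia* was at 80.3 ± 2.81, followed by *Nfkb1* (49.1), *Rela* (39.5), *Nfkb2* (35.2), *Relb* (27.5), *Nfkbie* (25.5), *Bcl3* (17.9), *Nfkbib* (17.6), *Rel* (11.4) and *Nfkbiz* (3.28). Only *Bcl3* and *Nfkbib* overlapped there as neighbours. Among all genes tested, *Nfkbia* in M1 lay above 98.6% to 99.0% of genes in each library, *Rela* above 85.8% to 86.9%, and *Nfkbiz* went from 86.0% to 89.2% in M1 down to 16.2% to 21.9% in M2.

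The spread within groups set how small a difference could be seen. The coefficient of variation over 3 libraries ran from 1.18% (*Nfkb2*, wildtype M2) to 16.7% (*Nfkbiz*, *Mirc11-/-* M2), and that of *Rel* from 8.42% to 15.5%. For *Rela* it was at most 5.99% in any group. Library Ako2273M2 was the lowest of its group for 8 of the 10 genes, all but *Rel* and *Nfkbiz*, with *Nfkbia* at 60.5 FPKM and *Relb* at 22.2. Library Ako2273M1 was the lowest of its group for 9 of the 10. Ako2271M1 and Ako2271M2 were each the highest of their group for 7 of the 10.

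The balance of inhibitor to subunit transcripts differed accordingly. *Nfkbia*, *Nfkbib* and *Nfkbie* summed to between 522 and 596 FPKM in wildtype M1 and 121 to 126 in wildtype M2. The 5 subunits summed to between 218 and 223 in wildtype M1 and 162 to 163 in wildtype M2. The inhibitor sum was therefore 2.53 ± 0.19 (SD, n = 3) times the subunit sum in wildtype M1 and 0.76 ± 0.02 times in wildtype M2. In *Mirc11-/-* the ratio was 2.69 ± 0.03 in M1 and 0.72 ± 0.05 in M2. *Nfkbia* made up 50.2% of the summed FPKM of the 10 genes in wildtype M1 and 26.1% in wildtype M2. These are transcript sums and say nothing of protein.

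**Figure D3:**
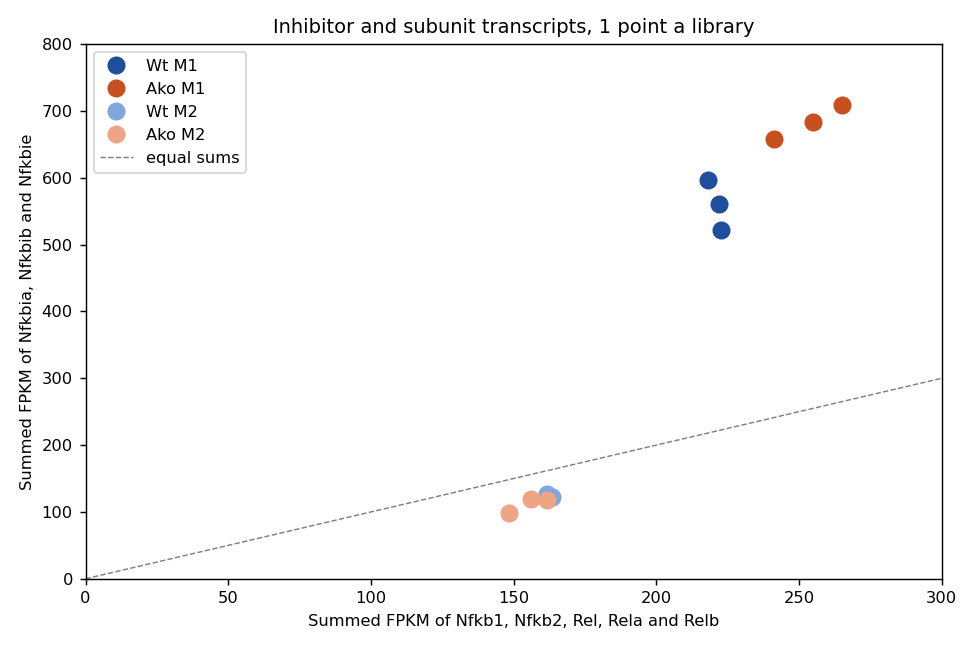
Summed FPKM of the 3 cytoplasmic IκB genes (vertical axis) against that of the 5 subunit genes (horizontal axis), 1 point a library, coloured by group, with a dashed line where the sums are equal. The 6 M1 libraries lie far above the line and the 6 M2 libraries below it, and the *Mirc11-/-* M1 libraries lie above and to the right of the wildtype M1 libraries.

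Marker lists also differed between the polarizations. The macrophage list itself summed to 11470 to 12430 FPKM in wildtype M1 and 13280 to 14020 in wildtype M2, and overlapped in *Mirc11-/-*. The summed FPKM of the neutrophil list was 42.2 to 74.7 in wildtype M1 and 2.02 to 6.33 in wildtype M2, led by *S100a8* and with *Elane* at 0. The dendritic cell list summed to 15.3 to 20.0 in wildtype M1 and 1.91 to 2.29 in M2, led in M1 by *Ccr7*, and the T and NK cell list to 2.18 to 3.04 and 11.5 to 13.2, led by *Cd4*, with 1 marker of 8 at or above 1 FPKM. The endothelial list summed to 9.50 to 11.5 in wildtype M1 and 13.4 to 14.8 in M2, and the B cell list and the mast cell and basophil list, at most 1.12 in any wildtype library, were also higher in M2 without overlap. Their part in the differences between M1 and M2 was not tested. In bulk libraries fewer cells with a transcript and less of it per cell cannot be told apart.

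The genotypes were compared within each polarization. In M1, *Nfkb2* and *Nfkbia* were higher in *Mirc11-/-* than in wildtype macrophages and no gene of the 10 was lower by the limma adjusted p. Genes called by adjusted p made up 5.99% (higher) and 7.96% (lower) of all genes tested. At an unadjusted limma p under 0.05, 6 of the 10 were higher and 0 lower. The share of all genes at that unadjusted threshold was not computed, so this count is not read as a result about the 10 genes. Of the 10 genes, 7 had all *Mirc11-/-* libraries above all wildtype libraries, and 12.7% of all genes tested did so, with 18.8% the other way. The median log2 change was 0.16 for the 10 genes and -0.02 for all genes tested. Leaving out 1 library gave 1 called gene (without Wt2261M1, Wt2262M1, Ako2271M1 or Ako2272M1), 3 (without Ako2272M2) or 4 (without Wt2260M1 or Ako2273M2). Median-of-ratios scaling gave 4 and moved the share of higher genes among all calls from 42.9% to 55.5%.

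*Nfkb2* carried the firmest difference. Its 3 *Mirc11-/-* M1 libraries (83.3 to 90.8 FPKM) lay above the 3 wildtype ones (67.2 to 70.1), a ratio of means of 1.26. The log2 difference was 0.33 ± 0.05 (SE), with a 95% interval of 0.22 to 0.44 and a limma adjusted p of 0.00149. It kept its call without any single library, at 0.30 to 0.36. Using only the 6 libraries whose title and treatment field name the same polarization, which leaves 1 wildtype library in M1, it was 0.40 with adjusted p = 0.0309, the lone library being assumed to vary like the rest.

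*Nfkbia* was at 573, 551 and 532 FPKM in *Mirc11-/-* M1 and at 476, 419 and 448 in wildtype M1. The groups did not overlap and the ratio of means was 1.23. The log2 difference was 0.30 ± 0.08 (SE), with an interval of 0.12 to 0.49 and limma adjusted p = 0.0339. This call was close to the threshold. It was lost without Wt2261M1 (0.26, adjusted p = 0.13), Wt2262M1 (0.31, 0.064), Ako2271M1 (0.28, 0.101), Ako2272M1 (0.31, 0.0941) or Ako2273M1 (0.33, 0.0515), without the filter on low genes (0.30, 0.0623), and with only the 6 libraries of matching labels (0.24, 0.126).

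The other IκB genes had similar but uncalled values in M1. *Nfkbib* was at 75.0, 71.9 and 70.8 FPKM in *Mirc11-/-* and 66.2, 56.1 and 60.4 in wildtype, with a log2 difference of 0.25 ± 0.08 (SE) and limma adjusted p = 0.054. *Nfkbie* was at 60.3, 60.6 and 55.1 in *Mirc11-/-* and 54.7, 47.1 and 51.8 in wildtype, with a difference of 0.19 ± 0.07 (SE) and adjusted p = 0.0724. For both, every *Mirc11-/-* library was above every wildtype library without passing the threshold. *Nfkbib* passed it with median-of-ratios scaling (0.28, adjusted p = 0.0362) and without Wt2260M1 (0.0366), Ako2272M2 (0.029) or Ako2273M2 (0.0406). It was smaller without Wt2261M1 (0.20, adjusted p = 0.203) and with only the 6 libraries of matching labels (0.15, 0.401). *Nfkbie* passed it with that scaling (0.22, 0.0457) and without Wt2260M1 (0.0487), and was at 0.14 without Wt2261M1 (0.261).

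The same held for *Relb* and *Nfkb1* among the subunits. *Relb* was at 38.4, 36.9 and 36.4 FPKM in *Mirc11-/-* M1 and 34.3, 32.7 and 32.0 in wildtype M1, with a log2 difference of 0.17 ± 0.06 (SE). *Nfkb1* was at 71.7, 67.0 and 61.9 in *Mirc11-/-* and 58.6, 60.2 and 61.8 in wildtype, with 0.15 ± 0.06 (SE). Both had a limma adjusted p of 0.103 and libraries that did not overlap, by a narrow margin for *Nfkb1*. *Relb* passed the threshold without Ako2273M2 (adjusted p = 0.0315) and *Nfkb1* without Ako2273M1 (0.20, adjusted p = 0.0339). Without Ako2271M1 *Nfkb1* was at 0.096 (adjusted p = 0.297). *Rela*, at 52.9, 53.6 and 51.1 against 50.5, 50.9 and 48.2, differed by 0.07, with an interval of -0.04 to 0.19.

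For *Rel*, *Nfkbiz* and *Bcl3* the genotypes overlapped in M1. Their log2 differences were 0.14 (interval -0.14 to 0.42), 0.11 (-0.10 to 0.33) and 0.05 (-0.11 to 0.21). For *Rel* the interval is wide enough to hold a difference as large as that of *Nfkb2*. Of the 4 genes with a seed match printed above, *Nfkb2* was called in M1 and *Nfkbib*, *Rel* and *Bcl3* were not, and of the 6 without a match *Nfkbia* was called.

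**Figure D4:**
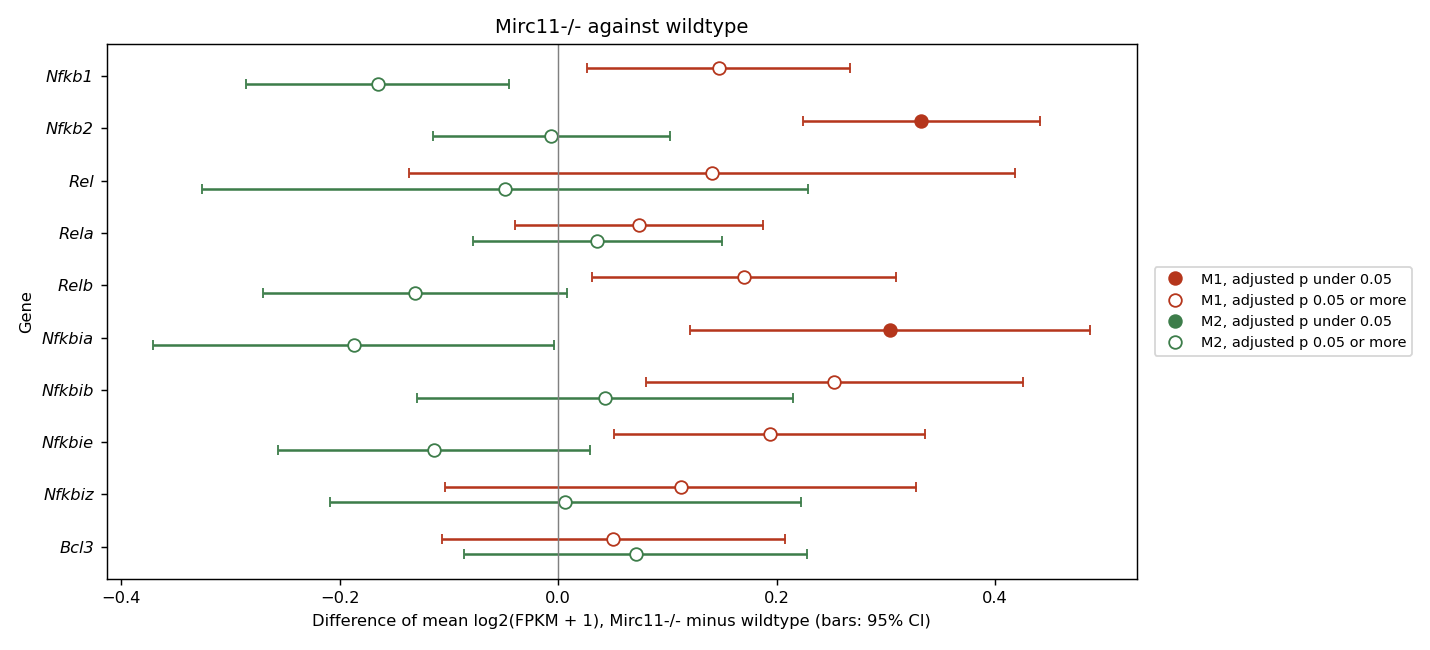
Difference of mean log2(FPKM + 1), *Mirc11-/-* minus wildtype (horizontal axis), for each gene (vertical axis) in M1 and in M2. Bars are 95% confidence intervals and filled points have an adjusted p under 0.05, which are *Nfkb2* (0.33) and *Nfkbia* (0.30) in M1 and no gene in M2.

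The marker lists of 4 other cell types did not overlap between the genotypes in M1. The neutrophil list summed to 28.4 to 32.2 FPKM in *Mirc11-/-* and 42.2 to 74.7 in wildtype, with 2 of 8 markers at or above 1 FPKM, *S100a8* leading and *Elane* at 0 in both. The endothelial list summed to 13.4 to 15.7 in *Mirc11-/-* and 9.50 to 11.5 in wildtype, with 2 of 5 markers at or above 1 FPKM. The fibroblast list was higher in *Mirc11-/-* (0.306 to 1.28) than in wildtype (0.0768 to 0.206) and the erythroid list lower (0.0191 to 0.0494 against 0.0736 to 0.168), with none of the 5 markers of either list at or above 1 FPKM. Their part in the genotype differences was not tested. The macrophage list overlapped, at 11510 to 12300 in *Mirc11-/-* and 11470 to 12430 in wildtype.

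In M2 no gene of the 10 passed the limma test between the genotypes. At an unadjusted p under 0.05, 0 were higher and 2 lower, *Nfkb1* and *Nfkbia*, and those were also the 2 genes whose libraries did not overlap. The share of all genes at that unadjusted threshold was not computed, so nothing is read from this count. By adjusted p, 2.50% of all genes tested were called higher and 2.09% lower, and 11.9% did not overlap in the higher and 11.8% in the lower direction. *Nfkb1* was at 45.5, 42.9 and 42.8 FPKM in *Mirc11-/-* M2 and 49.1, 50.2 and 48.0 in wildtype M2, a log2 difference of -0.17 with an interval of -0.29 to -0.04 and adjusted p = 0.119. *Nfkbia* was at 76.1, 75.8 and 60.5 in *Mirc11-/-* and 78.8, 78.6 and 83.6 in wildtype, -0.19 with an interval of -0.37 to -0.0042 and adjusted p = 0.258. Without Ako2273M2 it was -0.080 (adjusted p = 0.562), and *Relb* went from -0.13 to -0.051. *Nfkb2* overlapped, at 36.4, 35.7 and 32.9 against 35.0, 35.6 and 34.8, with an interval of -0.12 to 0.10. The other 7 genes had values between -0.13 and 0.07, and the median of all 10 was -0.03.

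The marker lists that did not overlap between the genotypes in M2 were those of T and NK cells, B cells, dendritic cells and erythroid cells. The T and NK cell list summed to 7.02 to 10.1 FPKM in *Mirc11-/-* and 11.5 to 13.2 in wildtype, led by *Cd4*, with 1 of 8 markers at or above 1 FPKM. The B cell list summed to 1.32 to 1.76 and 0.494 to 1.12, with *Pax5* at 0 in both, and the dendritic cell list to 2.55 to 2.99 and 1.91 to 2.29. The erythroid list was at most 0.0929 in any M2 library. Their part in the values in M2 was not tested.

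Whether the genotype difference itself depended on polarization was tested as a difference of differences, M1 minus M2. *Nfkb2* passed, with 0.34 ± 0.07 (SE), an interval of 0.19 to 0.49 and a limma adjusted p of 0.0321, and 1 of the 10 genes was called higher against 0.937% of all genes tested. None of the 10 was called lower, against 0.917% of all genes tested. At an unadjusted limma p under 0.05, 5 of the 10 were higher and 0 lower. With the share of all genes at that threshold not computed, this count is not read as a result. The *Nfkb2* call was lost on leaving out any 1 of 10 libraries, all but Wt2262M1 and Ako2273M1, with values from 0.30 to 0.37 and adjusted p from 0.0501 to 0.0948 in those 10 fits. It was also lost with quantile normalization (0.33, adjusted p = 0.068) and with only the 6 libraries of matching labels (0.36, adjusted p = 0.168). The markers that did not overlap between the genotypes in M1 or in M2 apply here too.

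*Nfkbia* had the largest difference of differences, 0.49 ± 0.12 (SE), with adjusted p = 0.0628. It passed with median-of-ratios scaling (0.52, 0.0464) and quantile normalization (0.49, 0.0479). *Nfkb1* (0.31, adjusted p = 0.0706), *Nfkbie* (0.31, 0.13) and *Relb* (0.30, 0.129) had intervals above 0 without passing, and *Nfkb1* passed without Ako2273M1 (0.37, 0.029). For *Nfkbib*, *Rel*, *Nfkbiz*, *Rela* and *Bcl3* the interval included 0.

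Of the subunit ratios taken, *Nfkb2* to *Nfkb1* and *Relb* to *Rela* separated the genotypes, and *Rel* to *Rela* did not. The ratio of *Nfkb2* to *Nfkb1* FPKM was 1.15, 1.15 and 1.14 in wildtype M1 and 1.27, 1.30 and 1.35 in *Mirc11-/-* M1. In M2 it was 0.713, 0.710 and 0.725 in wildtype and 0.802, 0.833 and 0.770 in *Mirc11-/-*. In each polarization the *Mirc11-/-* libraries were above the wildtype ones, in M1 with *Nfkb2* as the gene that was called and in M2 with lower *Nfkb1* values. The ratio of *Relb* to *Rela* was 0.661 ± 0.019 (SD, n = 3) in wildtype M1 and 0.709 ± 0.020 in *Mirc11-/-* M1. In M2 it went the other way, at 0.672 to 0.737 in wildtype and 0.588 to 0.655 in *Mirc11-/-*, and the genotypes overlapped in neither polarization. The ratio of *Rel* to *Rela* overlapped in both polarizations. It was 0.149 to 0.204 in wildtype M1 and 0.164 to 0.212 in *Mirc11-/-* M1. In M2 it was 0.260 to 0.312 in wildtype and 0.217 to 0.334 in *Mirc11-/-*. These ratios are given as descriptions, with no test, and how often ratios of other genes separate the genotypes was not computed.

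Genes upstream of IκB degradation, a list of 24 kinases, adaptors and ubiquitin ligases, were all tested. Between M1 and M2 in wildtype, 12 were higher and 6 lower, and the numbers were the same in *Mirc11-/-*. The shares over all genes tested were 26.6% higher and 52.0% lower in wildtype and 26.0% and 54.0% in *Mirc11-/-*. *Birc3*, a ubiquitin ligase of the TNF receptor complex, was at 74.2 ± 0.62 FPKM (SD, n = 3) in wildtype M1 and 22.8 ± 1.66 in wildtype M2. *Traf2*, its adaptor, was at 21.7 and 7.58. In M1, 2 of the 24 were higher in *Mirc11-/-* than in wildtype and 1 was lower, which is near the 5.99% and 7.96% of all genes tested. *Ikbkg*, the regulatory subunit of IKK, was at 11.1 ± 0.23 FPKM in *Mirc11-/-* and 15.9 ± 1.30 in wildtype, a log2 difference of -0.49 ± 0.05 (SE) with limma adjusted p = 2.01e-04. The higher genes were *Ikbke*, an IKK-related kinase (0.27, adjusted p = 0.044), and *Fbxw11*, part of a ligase that recognizes phosphorylated IκB (0.17, 0.0446). In M2 none of the 24 passed the limma test. At an unadjusted limma p under 0.05, 2 were higher and 0 lower. With the share of all genes at that threshold not computed, this count is not read as a result. *Ikbkg* was also the only gene of the list with a called difference of differences, -0.54 (adjusted p = 0.00607). Of all genes tested, 0.937% were called higher and 0.917% lower there. The list's median log2 change with genotype in M1 was 0.01, against -0.02 for all genes tested.

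A list of other negative regulators held 21 symbols, counting *Otulin* under its older symbol *Fam105b* too. Of these, 20 were found and 19 were tested. In wildtype 7 were higher and 6 lower in M1 than in M2, and in *Mirc11-/-* 10 were higher and 4 lower, beside the same shares over all genes tested (26.6% and 52.0% in wildtype, 26.0% and 54.0% in *Mirc11-/-*). *Irak3*, a kinase-dead inhibitor of Toll-like receptor signaling, was at 95.1 ± 2.59 FPKM in wildtype M1 and 8.87 ± 0.52 in wildtype M2, and *Tnip1*, a partner of the deubiquitinase A20, at 131 and 36.6. Between the genotypes in M1, 4 were higher and 1 lower in *Mirc11-/-*, against 5.99% and 7.96% of all genes tested. *Tnip3*, a relative of *Tnip1*, was at 59.4 ± 2.74 in *Mirc11-/-* and 39.8 ± 3.10 in wildtype, a log2 difference of 0.57 ± 0.06 (SE) with limma adjusted p = 2.01e-04. *Nlrx1*, a mitochondrial NOD-like receptor (0.38, adjusted p = 0.0034), and *Tnip1* (0.18, 0.0103) were higher as well, and *Tollip*, an adaptor that dampens Toll-like receptor signaling, was lower by 0.19 (0.0267). In M2 only *N4bp1* of this list passed, at 0.27 (adjusted p = 0.016), where 2.50% of all genes tested were called higher. The difference of differences was called for *Tnip3*, at 0.53, and for *N4bp1*, at -0.37, against 0.937% (higher) and 0.917% (lower) of all genes tested. The median of the list in M1 was 0.11.

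The target list held 30 genes known to respond to NF-κB, of which 28 were tested. In M1 against M2, 25 were higher and 2 lower in wildtype and 26 higher and 2 lower in *Mirc11-/-*, with a median log2 difference of 2.90 and 2.85, against 26.6% higher and 52.0% lower over all genes tested in wildtype and 26.0% and 54.0% in *Mirc11-/-*. The cytokine gene *Tnf* was at 286 ± 14.9 FPKM in wildtype M1 and 14.4 ± 0.56 in wildtype M2, and *Il1b* at 1667 and 3.34. Between the genotypes in M1, 8 were higher and 2 lower in *Mirc11-/-*, against 5.99% and 7.96% of all genes tested, and the median was 0.10. The smallest adjusted p values belonged to *Cd83*, a surface marker of activated antigen-presenting cells (0.59), and to *Bcl2a1d* (0.61), *Bcl2a1b* (0.54) and *Bcl2a1a* (0.59), near-identical copies of a survival gene whose fragments may be split uncertainly between them. In M2, 2 were higher in *Mirc11-/-*, *Il1b* at 0.93 and the chemokine gene *Ccl5* at 0.99. The adhesion molecule gene *Icam1* was lower by 0.24, where 2.50% (higher) and 2.09% (lower) of all genes tested were called. The difference of differences was higher for 4 targets and lower for 2, against 0.937% and 0.917% of all genes tested. The higher ones were *Icam1* (0.56) and the near-identical copies *Bcl2a1d* (0.77), *Bcl2a1a* (0.80) and *Bcl2a1b* (0.70), so they are not 4 separate genes. Called targets lay in both directions, with 8 higher and 2 lower in M1 and 2 higher and 1 lower in M2. The 8 in M1 include the *Bcl2a1* copies, which may not be separate results, and 18 of the 28 were not called there.

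The genes whose profile over the 12 libraries was nearest to a member were found for the 4 members with the largest wildtype difference between M1 and M2, by the root mean square difference of centred log2(FPKM + 1). For *Nfkbiz* they were *Gbp11* (0.13), *Il15ra* (0.14) and *Batf2* (0.15). For *Nfkbia* they were *Leng9* (0.12), *Irf1* (0.15) and *Itgal* (0.15). *Nfkbib* was nearest to *Tspo*, *Rnaset2b* and *Tnip1*, each within 0.10, and *Bcl3* to *Whamm* (0.07), *Vasp* and *Psme2* (0.08 each). The 12 points of each profile are mostly set by the split between M1 and M2 and come from the same libraries.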

How the data were processed

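RNA from 12 macrophage libraries was sequenced by the authors (miRNeasy extraction, NEBNext Ultra II libraries). Per the labels, reads were aligned with STAR 2.5.1 to mm9, and the deposited values are FPKM from Cufflinks. Annotation, filters and strand setting are not given in the sources used here, so fragments of overlapping or antisense genes cannot be told apart. DESeq is named in the submitters' processing notes. Their tables of fold changes and adjusted p-values per transcript were not used. No read counts were used, so absolute depth is unknown.

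Groups were taken from the sample titles. FPKM were transformed as log2(FPKM + 1), and genes averaging 1 FPKM or more across libraries were kept (10137 of 23863). limma 3.58.1 (R 4.3.3) was fitted with 4 group means, moderated variances and an intensity trend, all tests two-sided, with Benjamini-Hochberg adjustment over all genes tested in each of 5 comparisons and a threshold of 0.05. Libraries were not stated to be separate animals, so p-values measure the spread between these samples only, and genotypes carry different title numbers, so genotype cannot be told apart from whatever those numbers mark. Group SDs are over 3 libraries. The limma fit, and no other step, was tested on simulated data.

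The members and the gene lists were chosen with earlier results of these data known. All 10 members are named, and of each list at most 4 genes a comparison, those with the smallest p among called genes. A pseudocount of 0.1, no filter, other scalings, no trend, the groups of each comparison alone, a replicate block, leaving out each library, grouping by the treatment field and the 6 libraries of matching labels were alternatives. RefSeq and GENCODE M21 sequences are of GRCm38, the FPKM of mm9, so no position was carried between them.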

Additional observations from a re-analysis of the deposited data

Results flagged for a closer look

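*Nfkb2* stood out because its difference between *Mirc11-/-* and wildtype macrophages passed the test of a difference between M1 and M2. The difference was 0.33 on the log2(FPKM + 1) scale in M1 and -0.01 in M2, which gives 0.34 ± 0.07 (SE) for M1 minus M2, with limma adjusted p = 0.0321. All 3 *Mirc11-/-* libraries were above all 3 wildtype libraries in M1, and the genotypes overlapped in M2. The call is not firm: it was lost without any 1 of 10 libraries (adjusted p from 0.0501 to 0.0948), with quantile normalization (0.068) and with the replicate block (0.051).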

How the results depend on the processing

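FPKM without read counts give no depth for a single value, so precision rests on 3 libraries a group, and the intervals of the genotype differences span 0 for several genes. The labels do not settle the polarization of 6 libraries, and no unstimulated macrophages were compared.

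With groups from the treatment field, which mixes libraries with M1 and M2 markers, 0 genes of the 10 were called in any comparison, and the number of called genes among all those tested was 2 for each genotype comparison and 0 for the others, against 1414 (M1), 465 (M2), 7970 and 8106 (M1 against M2, wildtype and *Mirc11-/-*) and 188 (difference of differences). Signs turned for M1 against M2 in wildtype (*Bcl3* -0.50, *Nfkb1* -0.12, *Nfkb2* -0.34, *Nfkbia* -0.74, *Nfkbib* -0.47, *Nfkbie* -0.30, *Nfkbiz* -1.28, *Rela* -0.11, *Relb* -0.027) and in *Mirc11-/-* (*Rel* 0.24), for the genotypes in M2 (*Bcl3* -0.40, *Nfkbib* -0.38, *Nfkbiz* -1.22, *Rela* -0.041) and for the difference of differences (*Bcl3* 0.92).

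With only the 6 libraries of matching labels, 1 gene was called between the genotypes in M1 and 0 for the difference of differences, and among all genes tested 457, 117 and 58 were called (M1, M2, difference). Signs turned for *Bcl3* in M1 (-0.016), *Nfkb2* in M2 (0.041), *Rel* in *Mirc11-/-* (0.085) and *Nfkbib* in the difference (-0.0051).

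Between the genotypes in M1, 1 gene was called without the filter and 4 with median-of-ratios scaling, which called 2 for the difference. No gene was called lower in M1 than in M2 in wildtype (0, *Rel* lost) without the filter, with either scaling or with the replicate block. Signs turned for *Rel* in *Mirc11-/-* (0.10 and 0.091 with the scalings) and for *Bcl3* in the difference (0.012, median-of-ratios). Fitting only the groups of a comparison called 869 genes of all those tested in M1 and 273 in M2.

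The main fit did not pair samples by title number. Over all genes tested, the deviations of same-numbered M1 and M2 libraries from their group means correlated at -0.29 to 0.21. With so few libraries a group, these values cannot settle whether the numbers pair the samples. Among the 10 genes, Ako2273 was the lowest of its group for 9 in M1 and 8 in M2, and Ako2271 the highest for 7 in each. The replicate block called 0 for the difference (*Nfkb2* adjusted p = 0.051) and changed no other count beside *Rel*.

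Leaving out 1 library gave 1 to 4 called genes between the genotypes in M1, 0 to 1 lower genes in wildtype M1 and 0 to 2 for the difference. Values crossed 0 for *Bcl3* in M1 (-0.017 to 0.085), for *Nfkb2* (-0.035 to 0.036), *Nfkbib* (-0.037 to 0.11), *Nfkbiz* (-0.097 to 0.072) and *Rel* (-0.14 to 0.063) in M2, and for *Bcl3* (-0.092 to 0.027) and *Rela* (-0.010 to 0.071) in the difference. Of all genes tested, 762 were called in M1 without Wt2261M1 and 753 without Ako2272M1, and in M2 258, 201, 224 and 251 without Wt2260M2, Wt2261M2, Ako2271M2 and Ako2272M2. For the difference 125, 292, 113, 79, 81 and 100.0 were called without Wt2261M1, Wt2262M1, Ako2271M1, Ako2272M1, Wt2260M2 and Ako2271M2. The causes of these changes were not tested.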
